A study of Caenorhabditis elegans with 16 samples.

Results

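The larger piRNA cluster region of Caenorhabditis elegans chromosome IV was examined for H3K9 dimethylation (H3K9me2) and trimethylation (H3K9me3). It was taken as the 500 bp windows of IV from 13500001 to 17200000, a stretch of 3.7 Mb that ends 294 kb before the right end of the chromosome, at 17493785. These are 7400 of 198087 windows, and the 7025 that held 20 counts or more in every one of the 4 input columns were kept, out of 191140 kept in all. The members were thus chosen by position and by input counts and not by the marks. The right arms of II (7324 kept windows), III (6652) and V (9971), each the outer 25% of its chromosome, were set against the region.

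Chromatin immunoprecipitation sequencing (ChIP-seq) was done on early embryos, before the bean stage, of worms kept at 20 °C. The worms were set-25(n5021) III or met-2(n4256) III mutants, and no wild type is among the samples analysed here, so every group carries a mutation in an H3K9 methyltransferase gene. For each mark and strain there is a ChIP and an input with 2 biological replicates in the labels, 16 samples in 8 groups. The table gives each group 1 column of counts, and whether that column is 1 replicate or both added together is unknown. The spread between replicates can therefore not be had, no difference below was tested, and each interval is one of counting error alone.

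Piwi-interacting RNAs (piRNAs) are short RNAs bound by the Argonaute protein PRG-1, which guide the recognition of foreign and transposon transcripts in the worm germline. Nearly all piRNA genes of C. elegans lie on IV, where a larger and a smaller cluster hold most of them, each gene being a short transcription unit of its own between and within protein-coding genes. In the RefSeq gene table (WBcel235), 14714 of 15363 piRNA genes, 95.8%, were on IV, against 78 on III, 109 on II and 202 on V. MET-2 is the enzyme for mono- and dimethylation of H3K9, and trimethylation of H3K9 in embryos needs SET-25. Both marks are typical of repeats and of silent chromatin, and H3K9me2 in worms is known for its place on the chromosome arms. The build of the windows is not given in the sources at hand and differs from that of the gene table, so no gene or sequence was assigned to a window.

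The ChIP columns held 19777605 counts for H3K9me2 in set-25, 26568332 for H3K9me2 in met-2, 19732750 for H3K9me3 under the set-25 label and 58645635 for H3K9me3 in met-2. Their inputs held 44992666, 34007808, 49395989 and 114221896 counts. The H3K9me3 library labelled set-25 went against its label at the mutated genes. In the windows of III from 13287501 to 13289000, which the H3K9me2 input of set-25 lacked (4 counts of 600 expected from the flanks), its ChIP held 1431 counts of 1030 expected. Its input held 2 of 806 there, and also 2 of 608 in the run from 8376501 to 8377500 that the H3K9me2 input of met-2 lacked (0 of 439), where its ChIP held 15 of 139.5. The ChIP thus kept the first run and was low in the second, whereas the input lacked both, so that ChIP and input differ from each other as well. Its ratios are given with this limit, and a difference between it and met-2 is one between 2 libraries and cannot be read as one between the genotypes. It is called the library labelled set-25 throughout. Within the cluster region itself, 0 runs of 2 or more windows were missing from any of the 4 inputs while present in the input of the other strain.

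H3K9me2 in set-25 embryos was present in the cluster region in scattered short runs and covered less of it than of the other right arms. Enrichment is log2 of ChIP over the matching input, each in CPM (counts scaled to a total of 1000000 per column) with 0.1 CPM added, and windows above 1 on this scale were called enriched. By this threshold 621 of 7025 windows were enriched, 8.84%, where 10.3% of all kept windows were. The share was 11.4% on the right arm of II, 19.2% on that of III and 31.2% on that of V, so the region had the lowest share of the 4 stretches and stood closest to II. On IV itself the share was 6.57% in the 0.5 Mb to the left of the region and 1.73% in the end to its right. It was 1.44% from 4.5 to 7 Mb of IV, so the low share was not particular to the region. Above a log2 ratio of 2 it was 3.33% in the region and 9.86% over the 3 arms together. The median window of the region stood at -1.37 (quartiles -1.98 and -0.42), against -1.03 on II, -0.65 on III and 0.11 on V. The median of all kept windows was -1.33, so that the typical window of the region lay near the genome's typical window and the arms lay above it. With the H3K9me3 input under the same strain label in place of its own, the median of the region minus that of the 3 arms was -0.14, in place of -0.89, while the enriched shares were 8.68% in the region and 21.5% on the arms. Relative to each library's own median, the shares were 23.3% in the region and 46.3% on the arms.

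**Figure D1:**
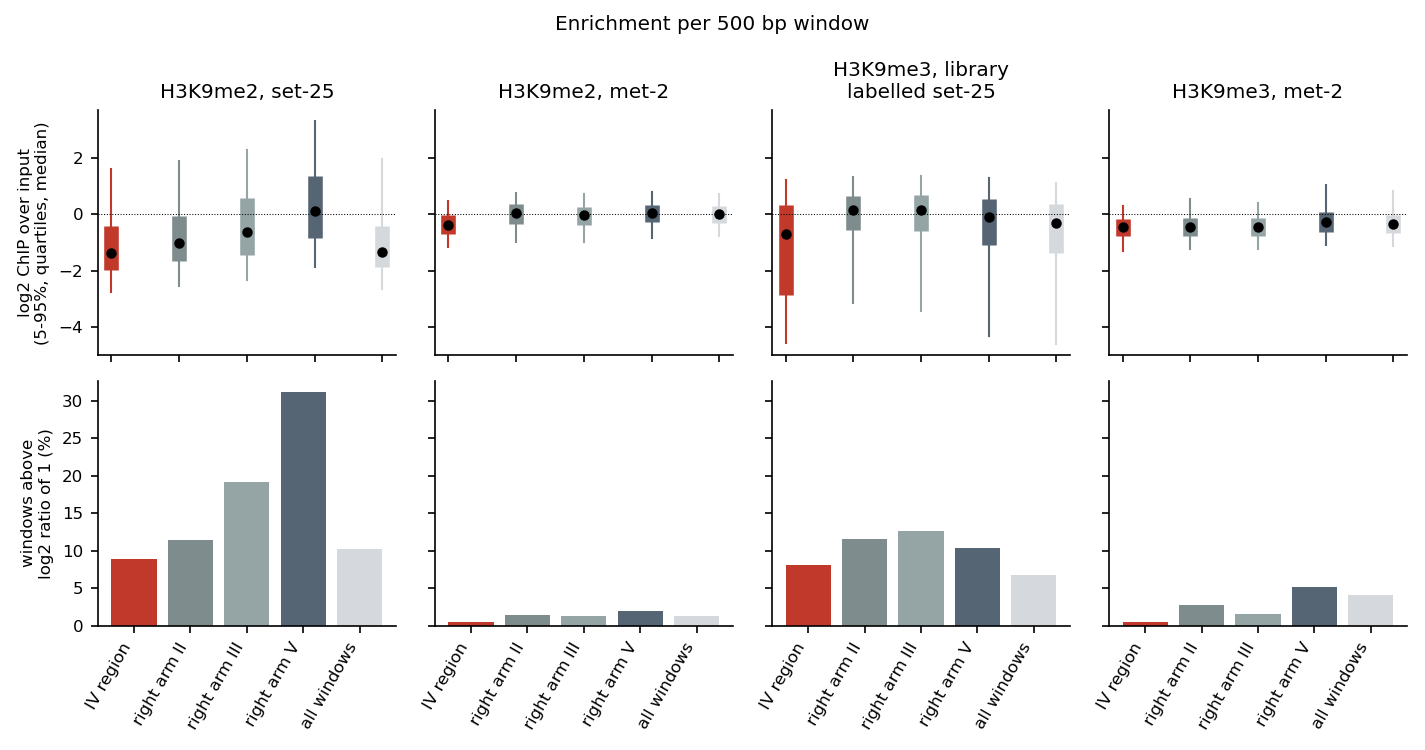
Top, log2 ChIP over input per kept 500 bp window for each of the 4 libraries, in the cluster region of IV, the right arms of II, III and V and all kept windows (dot, median; thick bar, quartiles; thin line, 5th to 95th percentile). Bottom, the share of windows above a log2 ratio of 1. For H3K9me2 in set-25 the share is 8.84% in the region and 11.4% to 31.2% on the arms, and for H3K9me3 in met-2 it is 0.456% in the region and 1.59% to 5.20% on the arms.

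In met-2 embryos H3K9me2 enrichment passed the threshold almost nowhere in the cluster region. There were 31 enriched windows, 0.441%, against 1.41% on the right arm of II, 1.32% on III, 1.95% on V and 1.34% of all kept windows. On IV itself the share was 0.834% in the 0.5 Mb to the left of the region and 1.37% from 4.5 to 7 Mb. In the end of IV to its right it was 0.173%, 1 of 578 windows, so the low share was not particular to the region. All 31 were single windows with no enriched neighbour, and none exceeded a log2 ratio of 2. The whole distribution was also shifted down, with a median of -0.37 (quartiles -0.72 and -0.01) in the region, against 0.04 on II, -0.04 on III, 0.04 on V and -0.01 over all windows. Only 24.3% of the region's windows had a ratio above 0, against 51.3% on the 3 arms. This lower level depended on the input. With the H3K9me3 input of met-2 in place of its own, the median of the region minus that of the arms was 0.48, in place of -0.39, and the enriched share became 18.9% in the region and 6.94% on the arms.

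H3K9me3 in met-2 embryos was sparse in the cluster region. Enriched windows numbered 32, 0.456%, against 4.10% of all kept windows, 2.73% on the right arm of II, 1.59% on III and 5.20% on V. On IV itself the share was 3.34% in the 0.5 Mb to the left of the region and 2.62% from 4.5 to 7 Mb. In the end of IV to its right it was 0.346%, 2 of 578 windows, so here too the low share was not particular to the region. Of the 32, 22 lay in 3 runs of at least 3 windows. The median window was at -0.47 in the region, -0.46 on II, -0.46 on III and -0.29 on V. The 95th percentile was 0.29 in the region and 0.68 on the 3 arms. Above a log2 ratio of 2 there were 2 windows in the region, 0.0285%, against 1.03% on the arms and 1.46% of all kept windows. The level depended on the input here too. With the H3K9me2 input of met-2 in place of its own input the median of the region minus that of the arms was -0.94, in place of -0.084, and the enriched shares were 4.19% in the region and 13.2% on the arms.

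Under the set-25 label, 570 windows of the region were enriched for H3K9me3, 8.11%, against 6.81% of all kept windows, 11.5% on the right arm of II, 12.6% on III and 10.3% on V. Of these 570, 62.1% were single windows, and the longest run measured 2.5 kb. The median window of the region held 31 ChIP counts, against 72 over all kept windows, and 1604 windows held no ChIP count, 22.8%, against 6.07% on the 3 arms and 8.64% of all kept windows. On IV such windows made up 5.32% of the 0.5 Mb to the left of the region. They made up 14.7% of the end of IV to its right and 15.4% of the stretch from 4.5 to 7 Mb. The H3K9me2 ChIP of set-25, with a similar total and a median of 36 counts in the region, had 2 such windows there. The median H3K9me3 ratio of the library labelled set-25 was -0.71 in the region, compared with 0.14 on II, 0.16 on III and -0.09 on V. On IV it was -0.09 to the left of the region, -0.75 to its right and -0.63 from 4.5 to 7 Mb. The ratios of windows without a ChIP count rest on the added 0.1 CPM, and with 1 CPM added the median of the region minus that of the arms was -0.54, in place of -0.77. Counted over 5 kb windows, 0.955% of the region and 1.33% of the arms were enriched, and the difference of the medians was -0.41. It was -1.59 with the H3K9me2 input of set-25 in place of its own. In windows with 3 to 6 CPM in the H3K9me3 input of met-2, an alternative chosen after seeing the data, it was -0.035, and the enriched shares were 12.95% in the region and 12.2% on the arms.

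Input coverage of the cluster region was lower than that of the 3 right arms together in the H3K9me3 experiment. In the H3K9me2 experiment it was not lower than theirs. The median window of the region held 2.69 CPM in the H3K9me3 input labelled set-25 and 2.61 CPM in that of met-2, against 4.66 and 4.53 CPM on the 3 right arms and 4.596 and 4.27 CPM over all kept windows. The H3K9me2 inputs held 4.93 CPM in set-25 and 5.53 CPM in met-2 in the region, against 4.89 and 4.85 CPM on the arms. Over all kept windows they held 5.36 and 5.44 CPM. On II, III and V singly the H3K9me2 input of set-25 held 4.96, 5.02 and 4.76 CPM. The region's coverage was thus 0.578 and 0.576 times that of the arms in the H3K9me3 inputs of the 2 strain labels, and 1.01 and 1.14 times in the H3K9me2 inputs.

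Low H3K9me3 input coverage ran along the whole region and was not confined to it. In 100 kb bins, all 37 bins of the region had a median below 4 CPM in the H3K9me3 input of met-2, against 27 of 124 bins on the 3 right arms and 29.9% of all bins of the genome. On IV outside the region 55 of 137 bins, 40.1%, were below 4 CPM, against 203 of 812 bins on the other chromosomes. The bins of the region ran from 2.01 to 3.76 CPM, and those of the arms from 2.74 to 7.02 CPM. Just outside, the 0.5 Mb to the left of the region had 4.77 CPM and the end of IV to its right 3.84 CPM. The last bin inside the region held 3.76 CPM, and the 3 bins to its right 4.59, 3.86 and 3.14 CPM. The stretch of IV from 4.5 to 7 Mb, where the smaller piRNA cluster is known to lie, had 3.47 CPM, lower than the arms and higher than the region. Window by window, the 2 H3K9me3 inputs ran together in the region (Spearman's rho 0.96 over 7025 windows), as the 2 H3K9me2 inputs did (0.68), while the inputs of the 2 marks ran against each other in met-2 (-0.26) and had a rho of 0.085 under the set-25 label. On the 3 arms these values were 0.97, 0.76, -0.34 and 0.021. These are descriptions, since neighbouring windows are not independent.

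**Figure D2:**
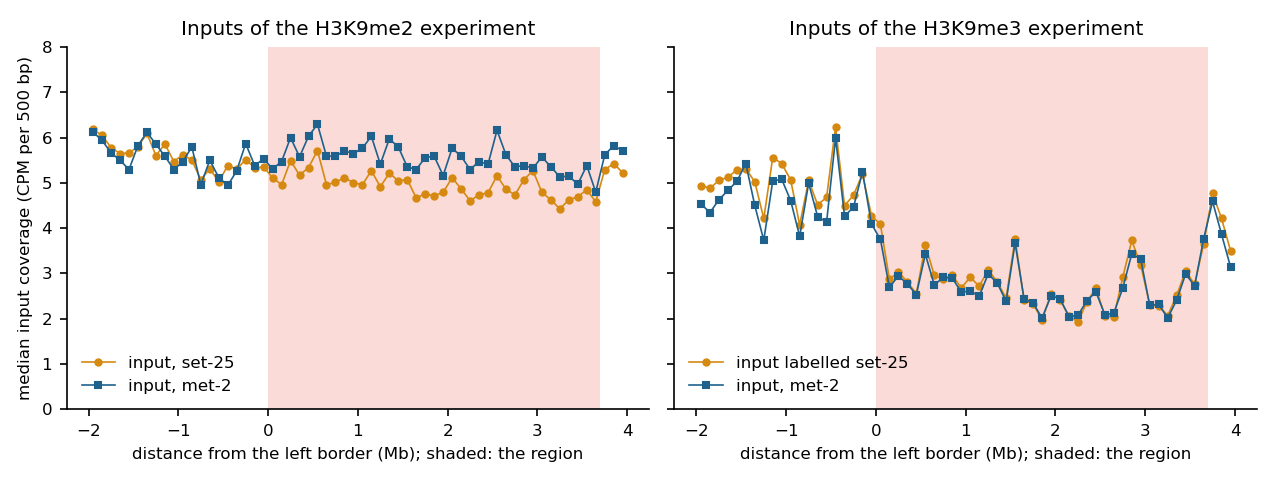
Median input coverage in CPM per 500 bp window, in 100 kb bins, against the distance from the left border of the region in Mb, for the inputs of the H3K9me2 experiment (left) and the H3K9me3 experiment (right). Shading marks the region. The H3K9me3 input of met-2 stays between 2.01 and 3.76 CPM inside the shading, while the H3K9me2 inputs stay between 4.42 and 6.29 CPM.

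Within classes of this coverage, the gap between the region and the arms differed from library to library. Windows were put into classes by their coverage in the H3K9me3 input of met-2, and 58.2% of the region's windows, against 25.9% of those on the arms, fell below 3 CPM. For H3K9me2 in met-2, the medians within a class lay close together, at -0.47 in the region and -0.35 on the arms from 2 to 3 CPM, at -0.20 and -0.11 from 3 to 4 CPM, and at -0.03 and 0.08 from 4 to 6 CPM. In the 5 classes above 1 CPM the region minus the arms was -0.12 to -0.09, where it was -0.39 over all windows. For H3K9me2 in set-25 the gap was larger and, above 1 CPM, narrowed with coverage. It was -0.78 from 1 to 2 CPM, -0.68 from 2 to 3 and -0.45 from 3 to 4. From 4 to 6 CPM it was -0.24, and above 6 CPM it turned to 0.26. Below 1 CPM, where the region had 127 windows, it was -0.16. The library labelled set-25 showed -2.14 from 1 to 2 CPM, -0.06 from 3 to 4 CPM and 0.09 from 4 to 6 CPM. Its medians from 1 to 2 CPM were -3.10 in the region and -0.96 on the arms, and a median as low as the former depends on the added 0.1 CPM. For H3K9me3 in met-2, whose own input sets the classes, the region lay below the arms in all 6 classes, with differences from -0.31 at 1 to 2 CPM to -0.073 above 6 CPM, where the difference over all windows was -0.084.

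**Figure D3:**
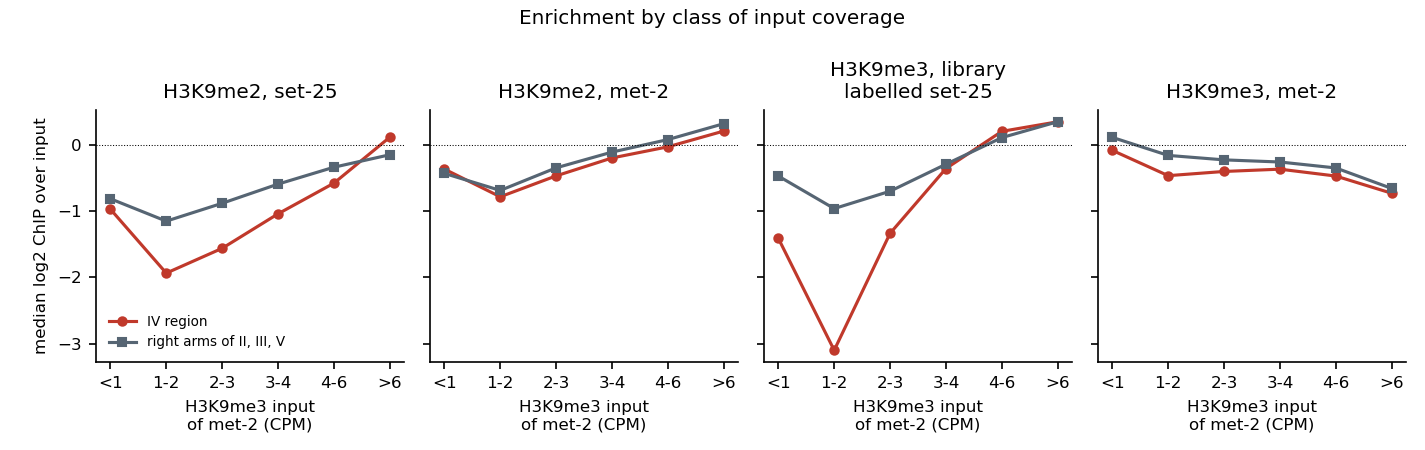
Median log2 ChIP over input by class of coverage in the H3K9me3 input of met-2 (CPM per 500 bp window), for the cluster region of IV and the right arms of II, III and V pooled, 1 panel per library. For H3K9me2 in met-2 the region minus the arms is -0.12 to -0.09 above 1 CPM, and for H3K9me2 in set-25 they cross at the highest coverage. The coverage class also sets the denominator of H3K9me3 in met-2.

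The smaller share of enriched windows was seen within coverage classes as well for H3K9me2 in set-25. From 3 to 4 CPM it was 7.25% in the region and 17.4% on the arms, and from 4 to 6 CPM 14.2% and 23.6%. Above 6 CPM the shares were 29.0% and 27.9%. Such well covered windows made up 14.3% of the region and 33.4% of the arms.

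H3K9me2 of set-25 was uneven along the region. The region was divided into 10 stretches of equal length, counted from the left. The share of enriched windows was highest in the 8th stretch, from 16090001 to 16460000, at 21.8%, and in the 10th, from 16830001 to 17200000, at 19.5%, against 21.8% over the 3 right arms. The lowest share, 1.80%, was found in the 3rd stretch, from 14240001 to 14610000. The other 7 stretches lay between 2.59% and 11.1%. The stretch medians ran from -1.58 in the 3rd to -0.80 in the 8th.

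The enriched shares of the other libraries were also highest in the 8th or the 10th stretch. H3K9me2 in met-2 had its highest share in the 8th, 0.997% or 7 windows, while its median was highest in the 1st, at -0.22, and lowest in the 7th, at -0.51. H3K9me3 in met-2 had its highest share, 2.71%, and its highest median, -0.37, in the 8th stretch, where both of its longer runs lie, and its share was at most 0.44% in every other stretch. The library labelled set-25 had its highest share, 13.2%, and its highest median, -0.20, in the 10th. H3K9me3 input coverage of met-2 was highest in the 10th stretch, at 2.99 CPM, and 2.71 CPM in the 8th, against 2.23 CPM in the 6th, the lowest. The 1st and 2nd stretches had 2.92 and 2.97 CPM, with enriched shares of 4.64% and 7.15% for H3K9me2 in set-25. The part of input coverage in the differences between stretches was not tested.

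**Figure D4:**
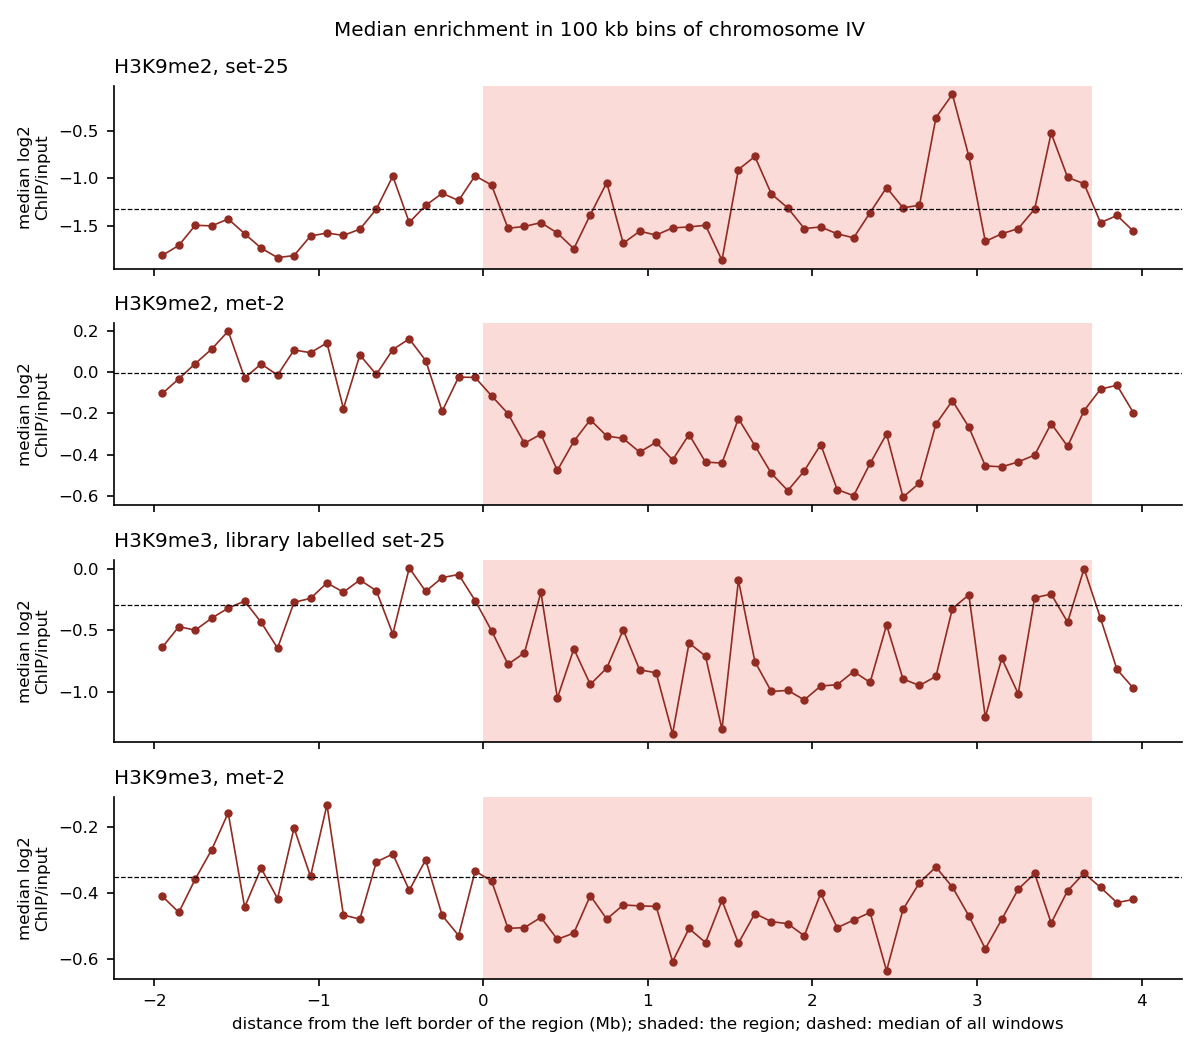
Median log2 ChIP over input in 100 kb bins along the right part of chromosome IV, against the distance from the left border of the region in Mb, 1 panel per library with its own scale. Shading marks the region and the dashed line the median of all kept windows. H3K9me2 in set-25 reaches -0.11 in its highest bin, and H3K9me2 in met-2 stays between -0.61 and -0.12 throughout the region.

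The enriched H3K9me2 windows of set-25 formed 69 runs of at least 3 adjacent windows, or 18.6 per Mb. The rate was 47.1 per Mb on the 3 right arms and 21.9 per Mb over the genome, with X given up to 16493500. Of the 69, 18 lay in the 8th stretch and 17 in the 10th, and none in the 3rd. Runs of at least 5 kb numbered 6, or 1.62 per Mb against 6.64 per Mb on the arms and 3.35 per Mb over the genome, and the longest measured 8.5 kb in the region and 28.5 kb on the arms. Single windows made up 20.5% of the enriched windows in the region, 12.5% on the arms and 13.8% over the genome.

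The longest run spanned 8.5 kb, from 16288001 to 16296500. For H3K9me2 in set-25 it held 4807 ChIP counts and 3525 input counts, a log2 enrichment of 1.63 (95% counting interval 1.57 to 1.70). In met-2 it held 2302 and 2787 counts, an enrichment of 0.08 (0.00 to 0.16). H3K9me3 was at 0.32 in the library labelled set-25 (2163 ChIP and 4333 input counts) and at -0.25 in met-2 (4506 and 10407 counts), so only H3K9me2 of set-25 passed the threshold in this run.

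The run with the strongest H3K9me2 among those of 5 kb or more extended over 5.5 kb, from 16158001 to 16163500. In set-25 it held 11326 ChIP and 2600 input counts, an enrichment of 3.31 (3.25 to 3.37), and in met-2 1865 and 1776 counts, an enrichment of 0.43 (0.33 to 0.52). This is a 7.37-fold difference between the strains. H3K9me3 was enriched in the same run in met-2, at 1.45 (1.41 to 1.48) from 17512 ChIP and 12504 input counts, and stood at 0.52 (0.45 to 0.59) in the library labelled set-25, from 2862 and 4990 counts. The run thus carried H3K9me2 in the embryos without SET-25 and H3K9me3 in those without MET-2.

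A second run of this kind spanned 6.5 kb, from 16312001 to 16318500. H3K9me2 was at 2.33 (2.26 to 2.39) in set-25, with 5601 ChIP and 2542 input counts, and at 0.67 (0.58 to 0.77) in met-2, with 2026 and 1628 counts. H3K9me3 was at 1.70 (1.67 to 1.73) in met-2, with 22745 and 13655 counts, and at 0.28 (0.21 to 0.34) in the library labelled set-25, with 2728 and 5642 counts. This H3K9me2 value of met-2 was the highest of that library among the 69 runs.

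The other runs of at least 5 kb carried H3K9me2 of set-25 with little of the other 3. From 16261001 to 16266500 enrichment was 2.40 in set-25 (3711 ChIP and 1597 input counts) and 0.43 in met-2 (1051 and 999), with H3K9me3 at 0.24 under the set-25 label (1328 and 2814) and 0.12 in met-2 (3913 and 6991). From 16921501 to 16927500 it was 1.77 in set-25 (3516 and 2353) and 0.18 in met-2 (1615 and 1821), with H3K9me3 at 0.09 (1970 and 4632) and -0.63 (3612 and 10876). From 16958501 to 16963500 it was 2.66 in set-25 (4146 and 1488) and 0.10 in met-2 (812 and 968), with H3K9me3 at 0.76 (1553 and 2301) and -0.46 (2189 and 5875). Of the 6 runs, all lay in the 8th and 10th stretches of the region.

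**Figure D5:**
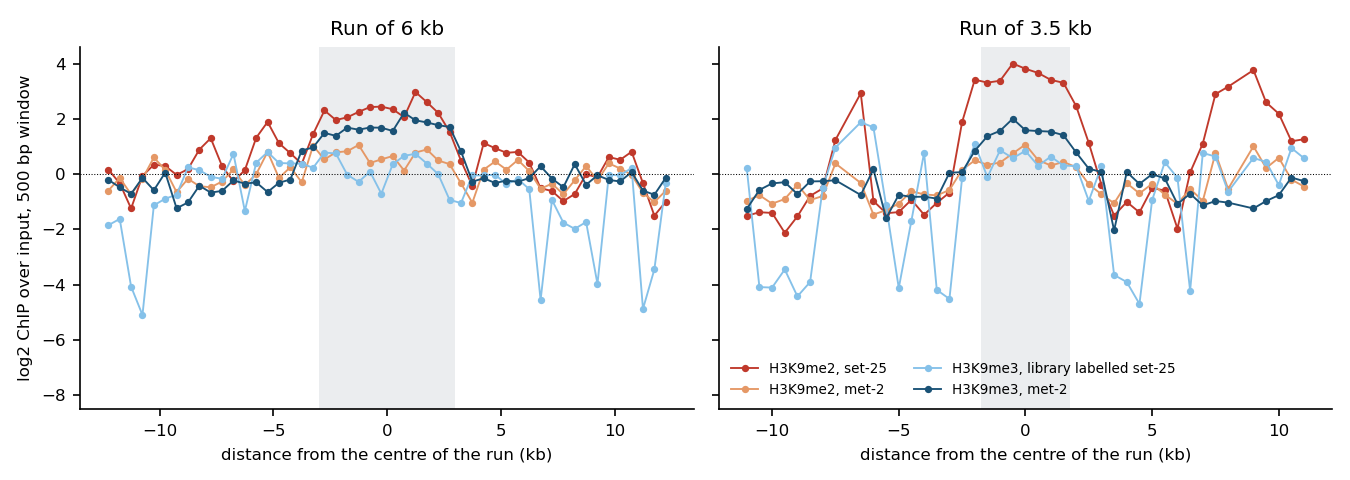
Log2 ChIP over input per kept 500 bp window against the distance in kb from the centre of the 2 longest runs of windows enriched for H3K9me3 in met-2. Shading marks each run, lines join neighbouring kept windows, and windows under the input floor are not drawn. Inside the shading H3K9me2 of set-25 and H3K9me3 of met-2 both stand above 1, while H3K9me2 of met-2 and the library labelled set-25 are lower than both. H3K9me2 of met-2 passes 1 there from 16314001 to 16314500, at 1.06, and from 16160501 to 16161000, at 1.07. Outside it H3K9me2 of set-25 also stands above 1 where H3K9me3 of met-2 does not, as from 16169501 to 16170000, at 3.76 and -1.24.

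Over all 69 runs the median of H3K9me2 in met-2 was 0.12 (quartiles -0.06 and 0.27), and 0 of them exceeded 1. H3K9me3 had a median of 0.33 in the library labelled set-25, with 4 runs above 1, and of -0.61 in met-2, with 2 runs above 1, both described above. H3K9me3 of met-2 was below 0 in 63 of the 69. Most single windows were not above 0 in this library either, since 15.4% of the region's windows and 24.1% of all kept windows were. The runs were chosen on H3K9me2 of set-25, whose own median of 2.11 is therefore only a description.

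H3K9me3 of met-2 formed 3 runs of its own in the region. The 2 longest, from 16312501 to 16318500 at 1.73 and from 16159001 to 16162500 at 1.59, lie inside the runs described. The third measured 1.5 kb, from 14773001 to 14774500, where H3K9me3 was at 1.26 (1.19 to 1.33) in met-2, with 3720 ChIP and 3019 input counts, and at 0.14 in the library labelled set-25, with 605 and 1379 counts. H3K9me2 was at -0.94 in set-25 (133 and 582 counts) and 0.32 in met-2 (324 and 332 counts), so this run lacked H3K9me2 by the threshold in both strains. In all, 22 of the 32 windows enriched for H3K9me3 in met-2 were enriched for H3K9me2 in set-25, which is 68.8% of the H3K9me3 list and 3.54% of the H3K9me2 list. The 12 and 7 windows of the 2 longest runs make up most of the 22. On the 3 right arms the shared windows were 41.5% of the H3K9me3 list and 6.55% of the H3K9me2 list, and over all kept windows 12.8% and 5.13%.

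The longest runs of the library labelled set-25 measured 2 to 2.5 kb, some with H3K9me2 of set-25 and some without. Of its 570 enriched windows, 93 were also enriched for H3K9me2 in set-25, which is 16.3% of its list and 15.0% of the H3K9me2 list, against 26.8% and 13.9% on the arms and 21.2% and 14.1% over all kept windows. From 14032501 to 14035000 it held 4649 ChIP and 2967 input counts, an enrichment of 1.97 (1.90 to 2.04), where H3K9me3 of met-2 was at -0.85 and H3K9me2 was -1.503 for set-25 and -0.29 for met-2. From 17101501 to 17104000 it was at 1.498 (1.37 to 1.62) together with H3K9me2 of set-25 at 2.71. The runs from 16659501 to 16662000, from 16746501 to 16748500 and from 13886001 to 13888000 were at 1.16, 1.57 and 1.29, with H3K9me2 of set-25 at -1.99, -2.85 and -0.45 there. Among the 5 longest runs that were also at least 1 higher under the set-25 label than in met-2, a further one of 2 kb lay from 16428001 to 16430000. There H3K9me3 was at 1.22 in the library labelled set-25, with 961 ChIP and 1036 input counts, and at -0.92 in met-2, with 735 and 2715 counts, while H3K9me2 of set-25 was at 3.18.

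The single highest window was a different one in each library. H3K9me2 of set-25 reached 5.12 from 16645501 to 16646000, with 2659 ChIP and 169 input counts, where met-2 stood at 0.26 with 122 and 130 counts. The highest H3K9me2 window of met-2, from 16523001 to 16523500, reached 1.43 with 167 and 77 counts, where H3K9me2 of set-25 was at 2.06. The library labelled set-25 reached 2.95 from 13933501 to 13934000, with 137 and 40 counts, where H3K9me2 of set-25 was at 1.54. H3K9me3 of met-2 reached 2.22 from 16316001 to 16316500, with 1541 and 635 counts. The one window with over 5 times the median count in all 4 inputs, from 13549001 to 13549500, held 6798 and 5094 counts in the H3K9me2 inputs of set-25 and met-2, and its H3K9me2 enrichment was 1.85 in set-25 and -0.29 in met-2.

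Between the strains, H3K9me2 enrichment was at least 1 higher on the log2 scale in set-25 than in met-2 in 626 windows of the region, 8.91%, where 9.81% of all kept windows were, and at least 1 lower in 3257, 46.4%, where 60.2% of all were. On the 3 right arms the shares were 20.9% higher and 32.8% lower. The median difference was -0.91 in the region, against -0.98 on II, -0.58 on III and 0.10 on V, so the region lay between II and III. Over all kept windows it was -1.27. The direction depended on scaling. Centring each library on its median moves every difference by 1.32. Then 28.2% of the region's windows were higher in set-25 and 4.03% lower, with a median of 0.41 in the region. On the 3 right arms 46.4% were then higher and 3.54% lower, with a median of 0.86. Over all kept windows the centred shares were 23.5% higher and 10.05% lower, with a median of 0.05. Centring cannot move the region relative to the arms. The 5 longest runs with H3K9me2 enriched and at least 1 higher in set-25 lay inside the runs of 5 kb or more described above, with differences of 3.04- to 7.37-fold. Of the 3257 windows of the region lower in set-25, 8 were enriched in met-2, all of them single. The counts were 123 of 7862 on the arms and 1519 of 115017 over all kept windows.

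For H3K9me3 the library labelled set-25 was at least 1 higher than met-2 in 20.8% of the region's windows, where 19.6% of all kept windows were, and at least 1 lower in 37.8%, where 29.7% of all were. On the 3 right arms these shares were 29.7% higher and 20.5% lower. The median difference was -0.29 in the region, against 0.58 on II, 0.63 on III, 0.07 on V and -0.08 over all kept windows. In windows of 5 kb, 10.6% of the region was lower, and with 1 CPM added in place of 0.1 CPM 20.04%. At these settings the shares on the arms and over all kept windows were not computed, so the region cannot be set against them. The windows without a ChIP count in the library labelled set-25, 22.8% of the region, move with this difference, and their part in it was not tested. The only run of at least 3 windows above the threshold in met-2 and at least 1 lower in the library labelled set-25 was the 5 kb from 16313501 to 16318500, at 0.14 in that library and 1.79 in met-2, a 3.13-fold difference.

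Across the windows of the region, enrichment of H3K9me2 in set-25 and in met-2 had a Spearman's rho of 0.55 (7025 windows), and on the arms of 0.30 (23947 windows). H3K9me2 of set-25 and H3K9me3 of the library labelled set-25 had rho of 0.36 in the region and 0.12 on the arms. For H3K9me2 of met-2 and that same library rho was higher, at 0.40 in the region and 0.21 on the arms. H3K9me3 of met-2 was near 0 against each of the other 3, at 0.04 to 0.07 in the region. Depth and input coverage are shared along neighbouring windows, so these values are descriptions.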

How the data were processed

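The authors deposited raw counts per 500 bp window, whole numbers whose totals differ between the 8 columns. Per the labels' protocols, embryos were fixed with formalin and chromatin was sonicated. Aligner, counting tool, build, and the treatment of duplicates and of reads that map to several places are stated in none of the sources, so counts in repeats need not follow copy number. Columns were assigned to groups by name. The last line of the table was incomplete and left out. The windows of X end at 16493500, so column totals and values over the genome or all windows cover X only up to there. The 6947 windows with under 20 counts in an input were not used. In the region these were 375, in 153 stretches of up to 9 kb.

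Counts were scaled to CPM, and the median window of the region held from 31 to 298 counts across the 8 columns. Runs were counted over adjacent kept windows. Regions were named by length: the 5 longest runs per library and per direction of strain difference, of at least 3 windows. The runs of H3K9me2 in set-25 of at least 5 kb were all described, which adds 1, from 16958501 to 16963500, after its values were seen. Intervals are exact (Clopper-Pearson) 95% binomial intervals of summed counts, and amplified reads are not independent molecules. The members, thresholds and comparisons were chosen with earlier results of these data known. Scripts were tested on simulated data with known enrichment. Python 3.11.15, pandas 2.3.3, numpy 2.4.6, scipy 1.17.1 and matplotlib 3.10.9 were used.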

Additional observations from a re-analysis of the deposited data

Results flagged for a closer look

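The H3K9me3 difference between the library labelled set-25 and met-2 had opposite signs in the cluster region and on the right arms of II, III and V. The median window of the library labelled set-25 stood at -0.29 relative to met-2 in the region and at 0.40 relative to met-2 on the arms together. The arms differed among themselves, at 0.58 on II, 0.63 on III and 0.07 on V, and on V more windows were at least 1 lower (27.3%) than at least 1 higher (22.2%), as in the region. Over all kept windows the median was -0.08. This difference was not tested, since each group is 1 column, and it rests on the library that goes against its label at the mutated genes and whose ChIP and input differ from each other there.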

How the results depend on the processing

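No paired analysis was possible because the columns carry no usable replicate numbers, and leaving out a replicate was not run for the same reason. Depth limits single windows, with region medians of 36 ChIP counts for H3K9me2 and 31 for H3K9me3 under the set-25 label. Windows without a count there numbered 2 for H3K9me2 and 1604 for H3K9me3, at similar totals. The cause was not tested for any change below.

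The difference of medians, region minus right arms, kept its sign for all 4 libraries under the 10 alternatives that can move it (centring a library cannot), except for H3K9me2 in met-2 with the input of the other mark, where it turned to 0.48. For H3K9me2 in set-25, from -0.89, it was -0.90 with totals without the most covered windows, -0.66 with 1 CPM added, -0.88 without an input floor and at a floor of 50, -1.11 with the input of the other strain, -0.142 with that of the other mark, -1.13 in 5 kb windows, -0.91 with the region trimmed by 0.5 Mb at either end, -0.86 against stretches at the same distance from the chromosome end, and -0.43 in windows with 3 to 6 CPM in the H3K9me3 input of met-2, an alternative chosen after seeing the data. For H3K9me2 in met-2, in the same order and without the totals, it was -0.32, -0.37, -0.38, -0.195, then 0.48, -0.37, -0.415, -0.38 and -0.12. For the library labelled set-25, from -0.77, it was -0.54, -0.68, -0.76, -0.70, -1.59, -0.41, -0.84, -0.79 and -0.035. For H3K9me3 in met-2, from -0.084, it was -0.087 with those totals, -0.034 with 1 CPM added, -0.079 without a floor, -0.047 with the input of the other strain, -0.94 with that of the other mark, -0.026 in 5 kb windows, -0.092 trimmed, -0.070 at the same distance and -0.11 at 3 to 6 CPM.

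The share of enriched windows in the region was 23.3% for H3K9me2 in set-25 with each library centred on its median, 13.3% at a threshold of 0.5 and 3.33% at 2, below the arms each time. For H3K9me2 in met-2 it was 0.0285% with 1 CPM added, 0.919% without a floor, 0.245% at a floor of 50, 0.0854% with the input of the other strain, 18.9% with that of the other mark, 0% in 5 kb windows, 4.61% at a threshold of 0.5, 0% at 2 and 0.104% at 3 to 6 CPM. For the library labelled set-25 the region's share, with the arms in brackets, was 14.2% (21.4%) centred and 4.996% (7.65%) with 1 CPM added. It was 13.2% (26.5%) with the input of the other mark and 0.955% (1.33%) in 5 kb windows. At thresholds of 0.5 and 2 it was 19.9% (30.0%) and 0.441% (0.476%). At 3 to 6 CPM it was 12.95% (12.2%), the only one of these above the arms. For H3K9me3 in met-2 it was 1.14% centred, 0.740% with totals without the most covered windows, 0.743% without a floor, 0.783% with the input of the other strain, 4.19% with that of the other mark, 2.01% at a threshold of 0.5, 0.0285% at 2 and 0.104% at 3 to 6 CPM, below the arms each time.

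Windows with H3K9me2 higher in set-25 made up 28.2% of the region with each library centred, 13.51% at a difference of 0.5 and 3.12% at 2. With centring the share was 46.4% on the arms and 23.5% over all kept windows. At differences of 0.5 and 2 these background shares were not computed. Windows with H3K9me3 lower in the library labelled set-25 made up 20.04% of the region with 1 CPM added, 10.6% in 5 kb windows and 17.05% at 3 to 6 CPM. The shares on the arms and over all kept windows were not computed at these settings.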
